A study of Mus musculus with 10 samples.

Results

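The 10 genes described here encode parts of the ribbon synapse of photoreceptors and bipolar cells: Ctbp2, Bsn, Pclo, Cplx3, Cplx4, Cacna1f, Cacna2d4, Slc17a7, Stx3 and Rims2. They were taken as a named list and matched by Ensembl ID to the deposited counts, where all 10 were found among 57186 genes. Of these, 9 passed the low-count filter and were tested with 11499 genes in all, while Bsn was too scarce. The counts came from neuroretinas of female C57BL6/JRj mice, taken on day 14 after an intravitreal injection, that is, into the gel that fills the eye. The CNP group (5 libraries) received 1 µL of hg-C3N4, the study's carbon nitride nanoparticles, at 1 mg/mL in PBS, and the PBS group (5 libraries) received PBS alone. All eyes were therefore injected, and no uninjected retina was measured. Libraries are called here by group and number in the labels, such as PBS 2 or CNP 20. The labels do not say whether each library is a separate animal, so every p-value measures only the spread between these libraries, which may be technical.

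Photoreceptors and bipolar cells signal with graded voltage changes rather than spikes, and release glutamate continuously. Their terminals hold a ribbon, a plate that tethers vesicles close to slowly inactivating L-type calcium channels. The ribbon is built from RIBEYE, a product of Ctbp2, and is anchored at the release site by Bassoon. Some proteins of vesicle fusion, among them complexins and a syntaxin, differ from those of conventional synapses.

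RIBEYE shares the Ctbp2 gene with CtBP2, a nuclear co-repressor found in many cells, and starts from a promoter inside the gene. The count table gives 1 value for the gene, so the 2 products cannot be told apart in these data. In the GENCODE M21 annotation of GRCm38, the longest coding transcript, which starts at the internal site, encodes 988 codons, while the longest of the others encodes 445. RefSeq start windows were found for 7 members (8 windows on GRCm38.p6), and the 250 bases before the start were searched on both strands for TAATCC, the core sequence bound by the photoreceptor factors CRX and OTX2. A match was present in 1 of the 8 member windows, that of the internal Ctbp2 start, and in 6.25% of 32851 windows of the same length from all genes. It lay on the reverse strand, 116 to 121 bases before the start. Another annotated coding transcript of Ctbp2 (188 codons) starts farther upstream in this window, at position 133015490, so the match lies after that start. The window of Ctbp2 is shown because it is the start of the ribbon's own protein, and those of Slc17a7 and Cplx3 because Slc17a7 was higher in the libraries with high numbers and Cplx3 was not, as described further on. Each is given 5′ to 3′ on the gene's strand, and capitals mark the match. A match is a description of the letters, not of binding. The windows do not cover every main start. The Stx3 window lies at the start of a transcript that encodes 86 codons. At the other Ctbp2 window no annotated transcript starts, and the Ctbp2 transcript of 445 codons had no window. The counts were made on GRCm39, and these windows are from GRCm38.p6.
Ctbp2 internal start (chr7:133015248-133015497, minus strand): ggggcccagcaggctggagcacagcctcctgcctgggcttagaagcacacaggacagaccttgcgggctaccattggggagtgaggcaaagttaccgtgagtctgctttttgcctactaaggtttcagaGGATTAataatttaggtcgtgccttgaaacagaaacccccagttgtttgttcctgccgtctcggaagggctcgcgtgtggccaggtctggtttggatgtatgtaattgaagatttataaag
Slc17a7 (chr7:45163671-45163920, plus strand): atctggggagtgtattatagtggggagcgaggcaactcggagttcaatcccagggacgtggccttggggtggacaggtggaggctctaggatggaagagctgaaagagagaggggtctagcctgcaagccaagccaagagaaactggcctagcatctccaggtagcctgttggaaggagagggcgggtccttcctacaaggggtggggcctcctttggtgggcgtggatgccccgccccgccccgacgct
Cplx3 (chr9:57606282-57606531, minus strand): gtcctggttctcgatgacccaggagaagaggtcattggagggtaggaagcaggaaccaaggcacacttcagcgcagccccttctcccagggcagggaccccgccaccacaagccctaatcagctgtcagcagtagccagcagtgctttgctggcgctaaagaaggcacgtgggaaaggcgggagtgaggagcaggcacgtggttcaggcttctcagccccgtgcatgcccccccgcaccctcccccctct

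The libraries held 3328518 to 5428697 counts. A count of 0 was taken to allow at most 3 expected counts, or 0.553 to 0.901 CPM of library totals, a limit that covers counting error only. CPM are counts scaled to a common library size, here after TMM, edgeR's correction for composition, unless stated otherwise. Fixed marker lists were read beside the tissue label, and none had a gene at 0 in every library. The lists included lens and pigment epithelium, so this does not test the label. The short-wavelength cone opsin Opn1sw had a median of 2277 CPM and the ON bipolar receptor Grm6 one of 46.2 CPM. The library numbers split the series. The 5 libraries numbered up to 10 (3 PBS, 2 CNP) held 4325794 to 5428697 counts, and the 5 numbered above 10 (2 PBS, 3 CNP) held 3328518 to 4337612. The summed level of 7 rod markers was 14661 to 18318 CPM in the first set and 20260 to 26797 CPM in the second, and that of 8 amacrine markers was 1103 to 1703 CPM and 593 to 956 CPM. What the number stands for is not given in the labels, and this division was known from earlier results of these data, so it is used below for description.

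Levels of the members covered a wide range. Compared per length (CPM per kb of the longest annotated transcript, mean ± SD over 10 libraries), Cplx4 stood first at 994 ± 198, followed by Stx3 at 384 ± 83.0 and Cplx3 at 198 ± 20.9. Slc17a7 had 37.9 ± 5.72, Ctbp2 19.8 ± 2.25, Rims2 16.3 ± 1.76 and Cacna2d4 12.4 ± 1.23. Cacna1f had 3.02 ± 0.268, Pclo 0.288 ± 0.0686 and Bsn 0.117 ± 0.0416. Neighbours in this order whose ranges over the 10 libraries overlapped were Ctbp2 with Rims2 and Rims2 with Cacna2d4, and the other neighbours did not overlap. With the length of all annotated exons in place of the longest transcript, Cacna2d4 (7.57 CPM per kb) and Rims2 (7.53) came in the opposite order, and Stx3 (206) lay close to Cplx3 (192). The labels' protocols name barcoded primers with molecular identifiers for reverse transcription, which put the barcode at an end of the copy. The sources used here do not state whether reads came from whole transcripts or from one end. If from one end, division by length understates long genes such as Bsn and Pclo, and CPM without division is the comparable level. In CPM Rims2 (78.2), Cacna2d4 (71.7) and Ctbp2 (71.4) came in that order, which moved Ctbp2 behind the other two, and the order of the other members was the same. Cplx4, Stx3 and Cplx3 together held 90.5% of the counts of the 10 members.

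The first question is whether the nanoparticles changed ribbon synapse transcripts relative to PBS. No member passed the test: edgeR's quasi-likelihood fit called 0 of the 9 tested members and 0 of 11499 genes (0% of genes tested) at an adjusted p under 0.05, and the smallest adjusted p was 0.9997. At an unadjusted p under 0.05 there were 0 members and 137 genes (1.19%), and DESeq2 called 0 genes with 86 at that level. Among the alternatives, Ctbp2 alone of the members came under it, with the lens level as covariate (edgeR unadjusted p = 0.0462) and without PBS 10 (edgeR unadjusted p = 0.0443). In CNP against PBS, 5 members had a positive and 4 a negative log2 fold change, with a median of 0.03, where the median of all tested genes was -0.0036. The PBS and CNP libraries overlapped for all 10 members, while 0.287% of tested genes showed no overlap. For all 9 tested members the 95% interval lay within 2-fold in either direction, as it did for 94.2% of all genes, and for 8 members it lay within 1.5-fold, as it did for 65.3%. The exception was Pclo.

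**Figure D1:**
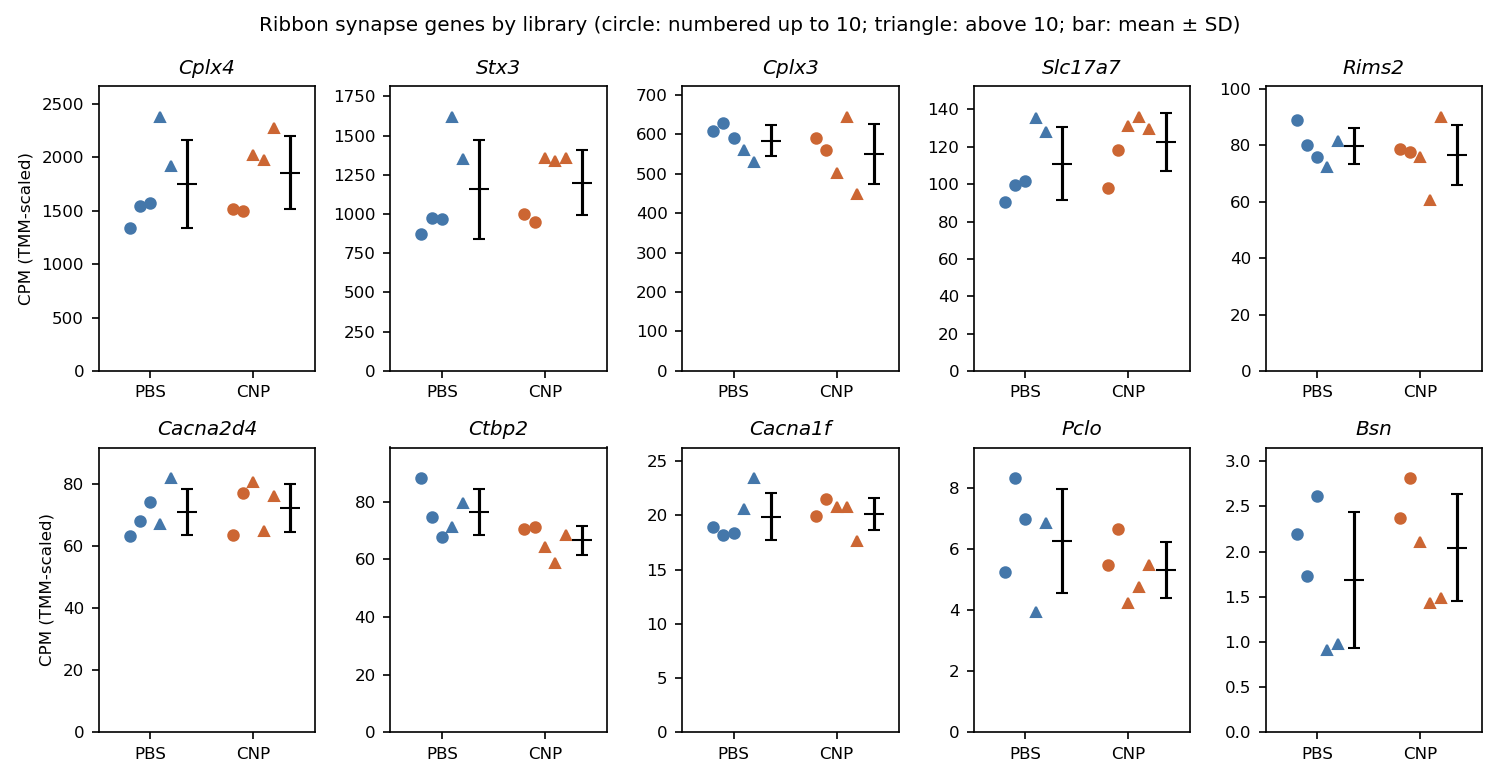
Abundance of the 10 ribbon synapse genes in each library, in TMM-scaled CPM (vertical axes from 0), for PBS and CNP, with the mean ± SD of each group (n = 5) as a bar. Circles are libraries numbered up to 10 and triangles those above 10. PBS and CNP overlap in every panel, and for Cplx4, Stx3 and Slc17a7 all triangles lie above all circles.

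Among the structural genes of the ribbon and its anchor, Ctbp2 had the smallest unadjusted p of the members. It measured 88.2 CPM in PBS 2, 74.8 in PBS 6, 67.7 in PBS 10, 71.3 in PBS 14 and 79.4 in PBS 18, against 70.4 in CNP 4, 71.1 in CNP 8, 64.1 in CNP 12, 58.8 in CNP 16 and 68.4 in CNP 20. PBS 2 was the highest library and CNP 16 the lowest, and the groups overlapped between 67.7 and 71.1 CPM. The log2 fold change was -0.20 (SE 0.10, 95% interval -0.41 to 0.01; edgeR unadjusted p = 0.0652, adjusted p = 0.9997). The difference of mean log2 CPM, CNP minus PBS, was -0.11 in the 5 libraries up to number 10 and -0.24 in the 5 with higher numbers.

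Bsn encodes Bassoon, which fastens the ribbon to the release site, and was close to the limit of detection. Its counts were 13, 10, 12, 3 and 3 in PBS 2, 6, 10, 14 and 18, and 13, 14, 7, 6 and 6 in CNP 4, 8, 12, 16 and 20. The groups overlapped, and the 5 libraries with the fewest counts were those numbered above 10, with a difference of mean log2 CPM of -0.62 (above 10 minus up to 10), although the CPM ranges of the sets overlapped. Fitted without the low-count filter, Bsn had a log2 fold change of 0.22 (edgeR adjusted p = 0.998). Pclo encodes Piccolo, a large scaffold whose short variant Piccolino is the form found at ribbon synapses in rodents. Counts were given per gene, so Piccolino and full-length Piccolo cannot be told apart in these data. The counts of Pclo were 31, 48, 32, 13 and 21 in PBS 2, 6, 10, 14 and 18, and 30, 33, 14, 20 and 22 in CNP 4, 8, 12, 16 and 20. Its log2 fold change was -0.24 (SE 0.21), with a 95% interval of -0.70 to 0.23, the widest of the members. The interval includes a 1.5-fold decrease and leaves out a 1.5-fold increase. Over the 10 libraries the spread of both genes was close to counting error alone, with a coefficient of variation of 35.5% for Bsn, where counting gives 33.9%, and of 23.8% for Pclo, where counting gives 19.5%.

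Rims2, an active-zone protein that links vesicles to calcium channels, measured 89.2, 80.0, 75.9, 72.2 and 81.7 CPM in PBS 2, 6, 10, 14 and 18. In CNP 4, 8, 12, 16 and 20 it measured 78.8, 77.6, 75.9, 60.5 and 90.2 CPM. CNP 16 was the lowest and CNP 20 the highest of all 10, so the CNP libraries enclosed the PBS range. The log2 fold change was -0.06 (SE 0.11, 95% interval -0.30 to 0.18).

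The calcium channel genes had the lowest coefficients of variation of the members, 8.86% for Cacna1f and 9.98% for Cacna2d4. Cacna1f, which encodes the pore of the L-type channel of photoreceptor terminals and is mutated in a human form of stationary night blindness, ranged from 17.7 to 23.4 CPM over all 10 libraries. PBS averaged 19.9 ± 2.20 CPM and CNP 20.1 ± 1.49 CPM (SD over 5 libraries), a log2 fold change of 0.03 (95% interval -0.22 to 0.27). Its spread was no larger than the 10.6% that counting alone gives, and its biological coefficient of variation in edgeR, 10.1%, was lower than that of all but 5.97% of tested genes. Cacna2d4, the accessory subunit of that channel, ranged from 63.4 to 82.0 CPM in PBS and from 63.6 to 80.7 CPM in CNP, with a log2 fold change of 0.03 (95% interval -0.19 to 0.26). PBS 18 was the highest library for both channel genes.

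Of the release genes, Cplx4, a complexin of photoreceptor terminals that clamps and primes vesicle fusion, was the most abundant member. It measured 1339, 1544, 1572, 2383 and 1918 CPM in PBS 2, 6, 10, 14 and 18, and 1515, 1495, 2021, 1975 and 2275 CPM in CNP 4, 8, 12, 16 and 20. The 5 lowest libraries were those numbered up to 10, from both groups. The log2 fold change between the groups was 0.08 (SE 0.18, 95% interval -0.30 to 0.47). The difference of mean log2 CPM, CNP minus PBS, was 0.023 within the lower-numbered libraries and -0.035 within the higher-numbered ones. Stx3, the syntaxin of ribbon terminals, measured 871, 973, 968, 1621 and 1349 CPM in the same PBS libraries and 998, 946, 1359, 1338 and 1359 CPM in the CNP libraries. PBS 14 was the highest for Stx3, as for Cplx4. Its log2 fold change was 0.05 (SE 0.19, 95% interval -0.35 to 0.46). Within the same library sets the difference of mean log2 CPM was 0.054 and -0.13.

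Slc17a7, the vesicular glutamate transporter of photoreceptors and bipolar cells, measured 90.2, 99.7, 102, 135 and 128 CPM in PBS 2, 6, 10, 14 and 18, and 97.8, 118, 131, 136 and 129.8 CPM in CNP 4, 8, 12, 16 and 20. Its log2 fold change was 0.15 (SE 0.13, 95% interval -0.14 to 0.43). The difference of mean log2 CPM was 0.15 within the lower-numbered libraries and 0.0083 within the higher-numbered ones. Cplx3, the complexin shared by cones, bipolar and some amacrine cells, measured 608, 628, 591, 559.6 and 528 CPM in those PBS libraries and 589, 559, 503, 645 and 449 CPM in the CNP libraries. The CNP libraries again enclosed the PBS range, with CNP 16 highest and CNP 20 lowest. Its log2 fold change was -0.09 (SE 0.11, 95% interval -0.33 to 0.16).

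**Figure D2:**
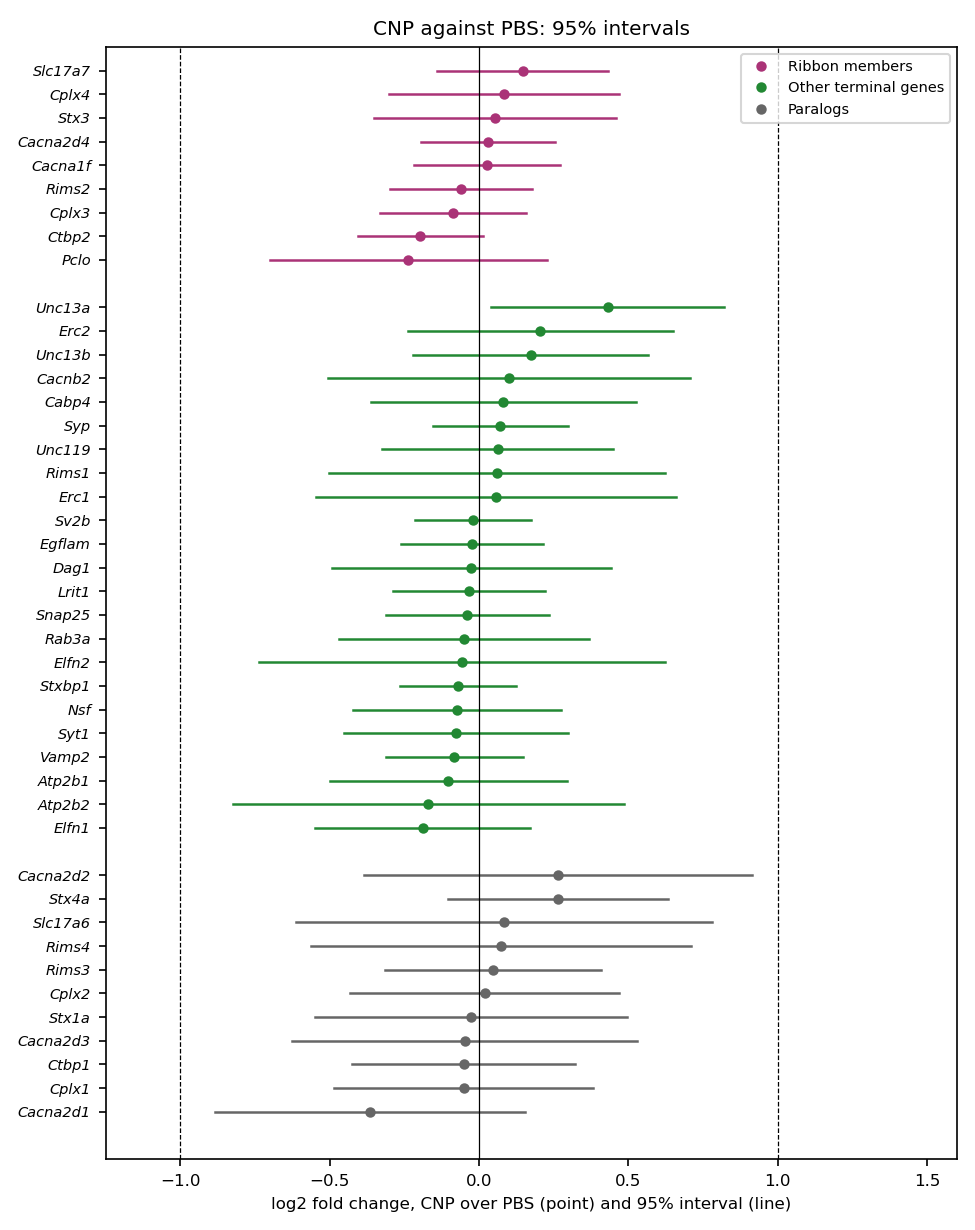
Log2 fold change of CNP over PBS (points) with its 95% interval (lines) from edgeR for the 9 tested ribbon synapse genes, 23 other genes of the photoreceptor and bipolar terminal and 12 paralogs of the members (Rims1, on both lists, is drawn once). Dashed lines mark 2-fold. Every interval stays between them, and among the genes drawn only that of Unc13a leaves out 0.

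Other genes of the terminal and paralogs of the members gave the same count of calls. Of 24 other terminal genes 23 could be tested, and 0 were called higher and 0 lower by edgeR, with 9 positive, 14 negative and a median log2 fold change of -0.03. The most abundant in CPM were Snap25, a fusion SNARE (-0.04), Unc119, a lipid-binding protein of photoreceptors (0.06), the vesicle SNARE Vamp2 (-0.08) and the vesicle GTPase Rab3a (-0.05). Named after its value was seen, the priming factor Unc13a was the 1 gene of this list with an unadjusted p under 0.05, as had 1.19% of all tested genes. Its log2 fold change was 0.43 (95% interval 0.04 to 0.82, edgeR unadjusted p = 0.0329, adjusted p = 0.9997), from about 5 CPM and 13 to 32 counts per library. Its biological coefficient of variation in edgeR, 7.41%, was lower than that of all but 1.79% of tested genes. Of 16 paralogs 12 were tested, with 0 called in either direction, 7 positive, 5 negative and a median of 0.03. Among them the complexins of conventional synapses, Cplx2 and Cplx1, had 0.02 and -0.05, and the RIM paralog Rims1 0.06. The transporter of ganglion cells, Slc17a6, had 0.08 and the RIBEYE relative Ctbp1 -0.05.

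Of the members, 3 separated by library number and not by treatment. In every library numbered above 10, Cplx4, Stx3 and Slc17a7 were higher than in any numbered up to 10, and this held for 9.82% of all tested genes. The other 6 tested members showed no such separation, and 0 members were lower in all libraries above 10, where 10.8% of all tested genes were. Cplx4 averaged 1493 ± 90.8 CPM up to 10 and 2114 ± 203 CPM above (SD, n = 5 each), Stx3 951 ± 48.6 and 1405 ± 121 CPM, and Slc17a7 102 ± 10.4 and 132 ± 3.60 CPM. As differences of mean log2 CPM, libraries above 10 minus those up to 10, these were 0.50, 0.56 and 0.38. Cacna2d4 had 0.09 and Cacna1f 0.09, Rims2 -0.09, Ctbp2 -0.12, Cplx3 -0.16 and Pclo -0.35. Scaled by library totals alone, the median of all genes moved from -0.03 to -0.22 between these sets, and all values moved down with it: Cplx4 to 0.30, Stx3 to 0.36 and Slc17a7 to 0.18. On that scale Cacna1f (-0.11) and Cacna2d4 (-0.11) changed sign, and Slc17a7 no longer separated the sets, with 128.5 CPM in CNP 8 and 114 CPM in PBS 14.

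**Figure D3:**
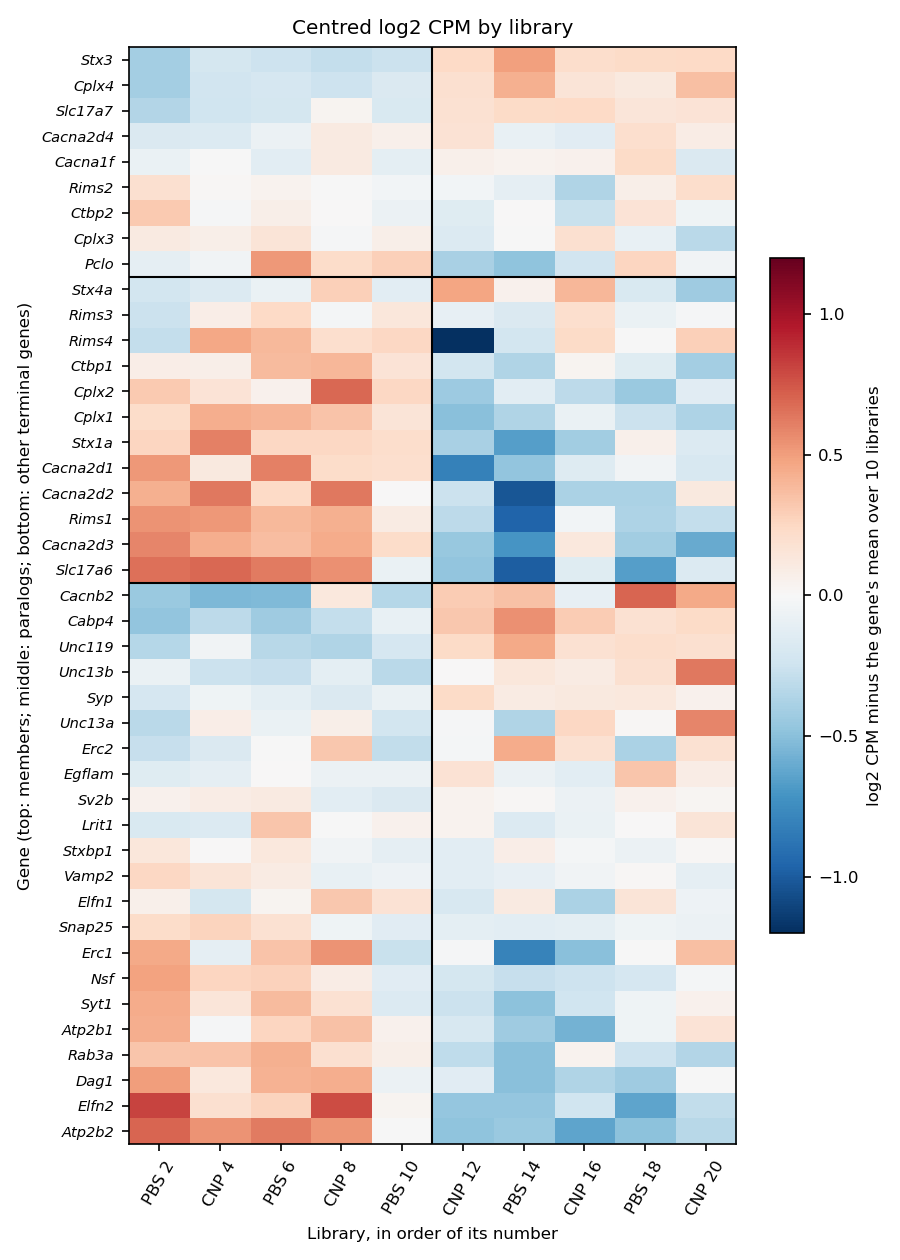
Log2 CPM of each tested gene minus its own mean over the 10 libraries (colour), with libraries in order of their number and genes in blocks of members (top), paralogs (middle) and other terminal genes (bottom). The vertical line divides libraries numbered up to 10 from those above. Stx3, Cplx4 and Slc17a7 are high on the right of it, as are Cabp4 and Unc119 in the bottom block, and 8 of the 12 paralogs are lower in every library on the right than in any on the left. Of all tested genes, 10.8% were lower in this way.

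Most tested paralogs of the members were lower along the same numbers. Of the 12 tested paralogs, 8 were lower in every library above 10 than in any up to 10, and 0 were higher throughout. Among all tested genes, 10.8% were lower and 9.82% higher in this way. Slc17a6 ranged from 23.1 to 39.7 CPM up to 10 and from 12.1 to 22.1 CPM above, and Rims1 from 43.9 to 59.9 and from 20.8 to 40.0 CPM. Of the 23 other terminal genes 4 were higher throughout above 10 and 4 were lower. Rims1 is on both lists and counts among the lower genes of each. Named after their values were seen, the higher ones included Cabp4, which tunes the photoreceptor calcium channel (184 to 241 CPM, then 291 to 374 CPM), and Unc119 (870.2 to 1084 CPM, then 1270.5 to 1533 CPM).

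Some lists of cell type markers moved along with these differences on the TMM scale and others did not. Of 7 rod markers 5, of 8 cone markers 4 and of 9 pigment epithelium markers 5 were higher throughout in libraries above 10, and 0 on each of these lists were lower throughout. Of 8 amacrine markers 7, of 10 bipolar markers 6 and of 8 ganglion cell markers 4 were lower throughout, with 0 higher. The shares of all tested genes were 9.82% higher and 10.8% lower throughout. The summed pigment epithelium level was 453 to 1208 CPM up to 10 and 1385 to 2367 CPM above, and that of 10 bipolar markers 1686 to 1918 CPM and 1344 to 1953 CPM. The summed lens level, 272 to 11383 CPM up to 10 and 356 to 4811 CPM above, did not follow the numbers. Of 5 horizontal cell, 8 microglia and 12 lens markers 0 separated the sets in either direction, and of 8 Mueller glia markers 1 was lower throughout. The summed microglia level was 100.3 to 125 CPM up to 10 and 77.8 to 134 CPM above, which overlapped. The part of cell composition, of pigment epithelium carried along and of depth in the members' differences was not tested. In bulk tissue, fewer cells of a type and less RNA per cell cannot be told apart.

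Ratios of counts within a library do not depend on scaling and set each ribbon gene against a partner (with a pseudocount of 0.5 counts on each side). Slc17a7 counts were 2.31 to 4.39 times those of Slc17a6 in libraries up to 10 and 5.90 to 11.1 times above. Cplx3 stood at 0.374 to 0.454 of Cplx4 in the first set and 0.198 to 0.326 in the second. Neither range overlapped its counterpart. Rims2 exceeded Rims1 by 1.33 to 1.73 times up to 10, and by 1.51 times in CNP 16 and 2.31 to 3.45 times in the other 4 libraries above 10. Ctbp2 exceeded Ctbp1 by 2.12 to 3.28 times in the first set and 2.26 to 3.61 times in the second, which overlapped.

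Between the treatments, 0 of the 5 ratios shown differed in the exact permutation test (two-sided, over all assignments of 5 and 5 libraries, smallest possible p = 0.00794). On the log2 scale, CNP minus PBS was -0.14 for Ctbp2 to Ctbp1 (exact p = 0.437, 0.774 adjusted over the 6 ratios computed), -0.19 for Cplx3 to Cplx4 (exact p = 0.476) and -0.19 for Rims2 to Rims1 (exact p = 0.516). It was -0.03 for Slc17a7 to Slc17a6 (exact p = 0.929). For Bsn to Pclo, the 2 scaffolds of the release site, the mean log2 ratio was -1.87 ± 0.58 for PBS and -1.36 ± 0.35 for CNP (SD over 5 libraries), a difference of 0.52 (exact p = 0.135, 0.774 adjusted). Within the library sets, the Bsn to Pclo difference was 0.41 up to 10 and 0.82 above, and that of Rims2 to Rims1 was -0.19 and -0.50. Averaged over the sets, these gave 0.61 and -0.35, with exact permutation p = 0.06 and 0.05 over 100 assignments within sets, and 0.18 for both when adjusted over the 6 ratios. Averaged in the same way, Slc17a7 to Slc17a6 gave -0.32 (-0.07 up to 10 and -0.57 above, exact permutation p = 0.19), Ctbp2 to Ctbp1 -0.22 (exact permutation p = 0.23) and Cplx3 to Cplx4 -0.06 (exact permutation p = 0.68). The counts of Bsn are few, 3 to 14 per library, so its ratio carries a large counting error.

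**Figure D4:**
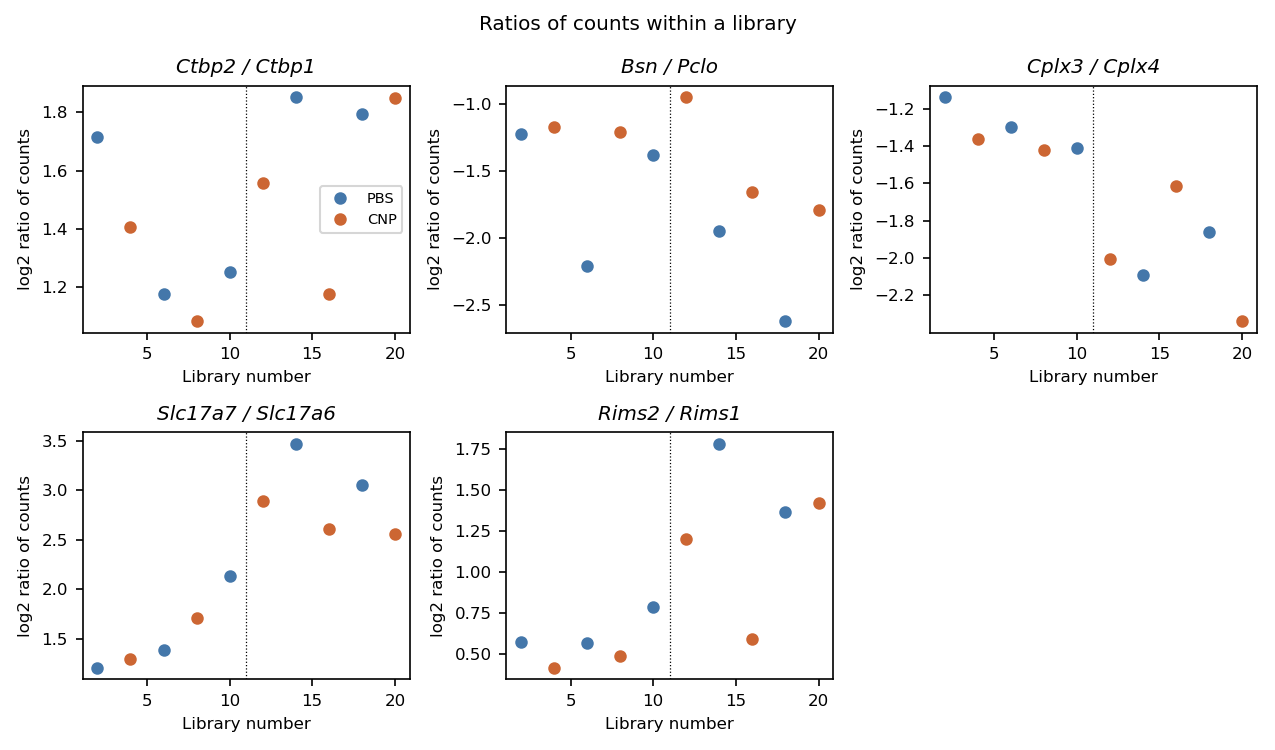
Log2 ratio of the counts of 2 genes within each library (vertical axis) against the library's number (horizontal axis), for PBS and CNP, with the dotted line between numbers up to 10 and above. Slc17a7 to Slc17a6 is higher in every library on the right, Cplx3 to Cplx4 is lower, and PBS and CNP overlap in each panel.

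The members differed in how far they varied among libraries. Over all 10 libraries the coefficient of variation was 19.9% for Cplx4 and 21.6% for Stx3, where counting alone gives 1.13% and 1.41%. Within the libraries up to 10 it was 6.08% for Cplx4 and 5.11% for Stx3, and within those above it was 9.60% and 8.60%. Ctbp2 had 11.4% over all libraries, 10.9% up to 10 and 11.3% above, where counting gives 5.57%. Cplx3 varied less up to 10 (4.29%) than above (13.5%). The genes whose centred log2 CPM lay closest to the mean profile of the 9 tested members over the 10 libraries were Vps72, Etfa, Rpn2, Ccdc43 and Manf, with root mean square differences of 0.0473 to 0.0552 on the log2 scale. Members lay on opposite sides of their own means in some libraries, such as Stx3 at 0.49 and Pclo at -0.48 in PBS 14. Such values cancel in the mean profile, so closeness to it does not show that a gene followed any single member.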

How the data were processed

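Polyadenylated RNA of 10 neuroretina samples was reverse transcribed with barcoded primers that carry molecular identifiers and built into sequencing libraries with reagents of 10x Genomics, per the labels' protocols. STAR, STARsolo and build GRCm39 are named per the submitters' processing notes. Versions, annotation, strand use and the collapsing of identifiers remain not given in the sources used here, so counting error may be understated. The authors deposited raw whole-number counts per Ensembl ID. Columns were matched by library name, and 0 columns were left over. Symbols and transcript lengths came from GENCODE M21, start windows from RefSeq (GRCm38.p6).

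Genes were filtered with filterByExpr (minimum count 10, total 15), TMM-scaled and tested on all 10 libraries with edgeR 4.0.16 in R 4.3.3 (quasi-likelihood, two-sided, Benjamini-Hochberg over all tested genes at 0.05), with no covariate. The 95% intervals follow from the F statistic. Log2 CPM differences between library sets used a pseudocount of 0.5 CPM. Alternatives were DESeq2 1.42.0, limma-voom (limma 3.58.1), other scalings, no low-count filter, covariates and each library left out. The code was tested on simulated counts. No pair of libraries within a group was a duplicate (20 pairs, chi-square per degree of freedom at least 3.99). Of the 6 ratios computed and adjusted together, 5 are given, and 1 gene each of the paralogs and the rod markers is not reported here and was left out of the counts and sums of those lists. The members and lists were chosen with earlier results of these data known. The rule for named genes took all members, the most abundant 4 genes of each further list and the partners in ratios, any gene past the threshold, and the 5 genes most like the members' mean profile.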

Additional observations from a re-analysis of the deposited data

How the results depend on the processing

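No paired analysis was made because the labels name no pairs of PBS and CNP libraries. Each library has its own number, so the numbers do not show whether any were paired. Under all 19 alternatives to the gene test, edgeR, DESeq2 and limma-voom called 0 genes and 0 members, and the smallest adjusted p of a member was 0.791. Genes at an unadjusted p under 0.05 numbered 86 with DESeq2 and 785 with the pigment epithelium level as covariate. The direction of Ctbp2, Pclo, Cplx3 and Slc17a7 held under every alternative, but the sizes moved: with the pigment epithelium level as covariate Pclo went from -0.24 to -0.063, Slc17a7 from 0.15 to 0.044 and Cplx3 from -0.09 to -0.032. With library number above 10 as covariate Slc17a7 went to 0.081. The direction reversed with library number above 10 as covariate for Cplx4 (-0.011) and Stx3 (-0.041). With the pigment epithelium level as covariate it reversed for Cplx4 (-0.064), Stx3 (-0.11), Cacna1f (-0.0074) and Cacna2d4 (-0.0084). The cause was not tested, and none of these values passed the test in either direction. With 1 library left out, the log2 fold change ran from -0.23 to -0.14 for Ctbp2, -0.34 to -0.099 for Pclo, -0.15 to -0.022 for Cplx3, 4.59e-05 to 0.22 for Cplx4 and 0.077 to 0.23 for Slc17a7. It crossed 0 for Stx3 (-0.034 to 0.21; below 0 without PBS 2, PBS 6 or PBS 10), Cacna1f (-0.0054 to 0.088; without PBS 6), Cacna2d4 (-0.010 to 0.087; without PBS 2 or CNP 12) and Rims2 (-0.13 to 0.014; above 0 without CNP 16). Likewise, ratio differences crossed 0 for Slc17a7 to Slc17a6 (-0.29 to 0.27; above 0 without CNP 4, CNP 8, PBS 14 or PBS 18) and Rims2 to Rims1 (-0.34 to 0.0011; above 0 without PBS 14). They kept their sign for Ctbp2 to Ctbp1 (-0.25 to -0.060), Bsn to Pclo (0.33 to 0.68) and Cplx3 to Cplx4 (-0.32 to -0.041). No setting called any of the 5 ratios shown (smallest adjusted p = 0.18). Without PBS 2, Bsn to Pclo had an exact permutation p = 0.0476, or 0.286 when adjusted over the 6 ratios. Depth limits Bsn and Pclo most, with 3 to 14 and 13 to 48 counts per library.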
